A study of Danio rerio with 16 samples.

Results

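RNA of citrine-positive cells was compared with RNA of mCherry-positive cells, both sorted from zebrafish hearts 7 days after cryoinjury (7 dpi). The comparison rests on 7 of the 16 libraries of the study, 3 of citrine-positive cells (pools 7, 9 and 10) and 4 of mCherry-positive cells (pools 5, 6, 7 and 9), chosen by their labels. All fish were adults of 3 to 9 months carrying both reporters, postnb:citrine and kdrl:mCherry, and in both groups the ventricle had been damaged locally by cold. The apexes of 3 to 5 hearts went into each sample and the cells were sorted by fluorescence, so a group is defined by its reporter alone. Uninjured mCherry-positive cells (3 libraries) and cells with neither reporter at 7 dpi (6 libraries, double-negative) made up the rest. Pools 7 and 9 gave both sorts. Values are TPM, transcript shares scaled to the same total in each library, and are given throughout in the order pools 7, 9 and 10 for citrine-positive and pools 5, 6, 7 and 9 for mCherry-positive libraries. A gene was called changed at an adjusted p under 0.05, by limma with Benjamini-Hochberg adjustment over all genes tested, and log2 fold changes of log2(TPM + 1) are given as citrine-positive minus mCherry-positive, ± SE. Where all libraries of a group were listed at 0, no fold change is given.

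The reporter postnb:citrine takes its name from a periostin gene. Periostin is a matrix protein made by activated fibroblasts, the cells that lay down collagen and fibronectin in a wound. The reporter kdrl:mCherry is named for a receptor of vascular endothelial growth factor (VEGF), and marks the endothelium of vessels and the endocardium, the inner lining of the heart chambers. Endothelial cells hold together through VE-cadherin, receive VEGF and angiopoietin signals, and use Notch signalling to choose between vessel fates.

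Endothelial marker genes were lower in citrine-positive libraries, and collagen and periostin genes were also found in mCherry-positive ones. The groups were sorted by reporters named for kdrl and a periostin gene, so differences in these genes are no independent test of the sort. The endothelial receptor gene kdrl had 0.74, 1.73 and 0.82 TPM in citrine-positive libraries, against 266, 248, 159 and 183 TPM in mCherry-positive libraries (log2 fold change -6.68 ± 0.37, adjusted p = 9.05e-10). VE-cadherin, cdh5, had 0.47, 0.93 and 0.77 TPM in citrine-positive libraries, against 422, 401, 214 and 294 TPM in mCherry-positive libraries (log2 fold change -7.56 ± 0.43, adjusted p = 1.45e-09). The receptor gene TIE1 was at 0, 0.19 and 0.47 TPM in citrine-positive and 69.3, 70.8, 50.6 and 89.7 TPM in mCherry-positive libraries (-5.85 ± 0.38), and the endothelial transcription factor gene FLI1 at 7.89, 14.4 and 13.2 TPM in citrine-positive and 381, 470.1, 217 and 219 TPM in mCherry-positive libraries (-4.61 ± 0.47). For each of these genes the groups lay far apart, and no citrine-positive library reached 2 TPM of kdrl, cdh5 or TIE1. The adhesion molecule PECAM1 was represented by pecam1a, listed at 0 in all citrine-positive libraries, against 22.4, 25.8, 16.9 and 14.9 TPM in mCherry-positive ones (adjusted p = 7.31e-07), and pecam1b, which was lower (-4.80 ± 0.59). The periostin symbol is carried by 2 IDs. POSTN (ENSDARG00000104267) had 715, 932 and 1532 TPM in citrine-positive libraries, against 0.28, 18.9, 11.7 and 36.3 TPM in mCherry-positive libraries (log2 fold change 6.59 ± 0.73, adjusted p = 3.96e-06), and no libraries overlapped. POSTN (ENSDARG00000043806) had 38.7, 196 and 382 TPM in citrine-positive libraries, against 66.7, 97.1, 55.3 and 407 TPM in mCherry-positive libraries (log2 fold change 0.37 ± 0.84, adjusted p = 0.837). Among mCherry-positive libraries it was highest in pool 9, and its groups overlapped. Which ID the reporter follows is not shown by these symbols. TCF21, a transcription factor of epicardium and cardiac fibroblasts, had 36.9, 54.1 and 83.7 TPM in citrine-positive libraries, against 0, 0, 0.53 and 0 TPM in mCherry-positive libraries (log2 fold change 5.66 ± 0.42, adjusted p = 3.98e-08). The collagen I gene COL1A2 had 515, 1462 and 1924 TPM in citrine-positive libraries, against 91.2, 119, 87.4 and 359.6 TPM in mCherry-positive libraries (log2 fold change 3.05 ± 0.54, adjusted p = 6.79e-04), so that the mCherry-positive library of pool 9 came close to the citrine-positive library of pool 7. The platelet-derived growth factor receptor gene PDGFRA, a common fibroblast marker, had 34.1, 58.4 and 43.0 TPM in citrine-positive libraries, against 14.8, 40.8, 25.6 and 44.5 TPM in mCherry-positive libraries and did not pass (log2 fold change 0.59 ± 0.44, adjusted p = 0.448). The levels overlapped between the sorts. Leaving out 1 library moved a log2 fold change by over 1.5 times in fold, without mCherry-positive pool 5 to 5.58 for POSTN (ENSDARG00000104267) and without mCherry-positive pool 9 to 7.2 for POSTN (ENSDARG00000104267).

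**Figure D1:**
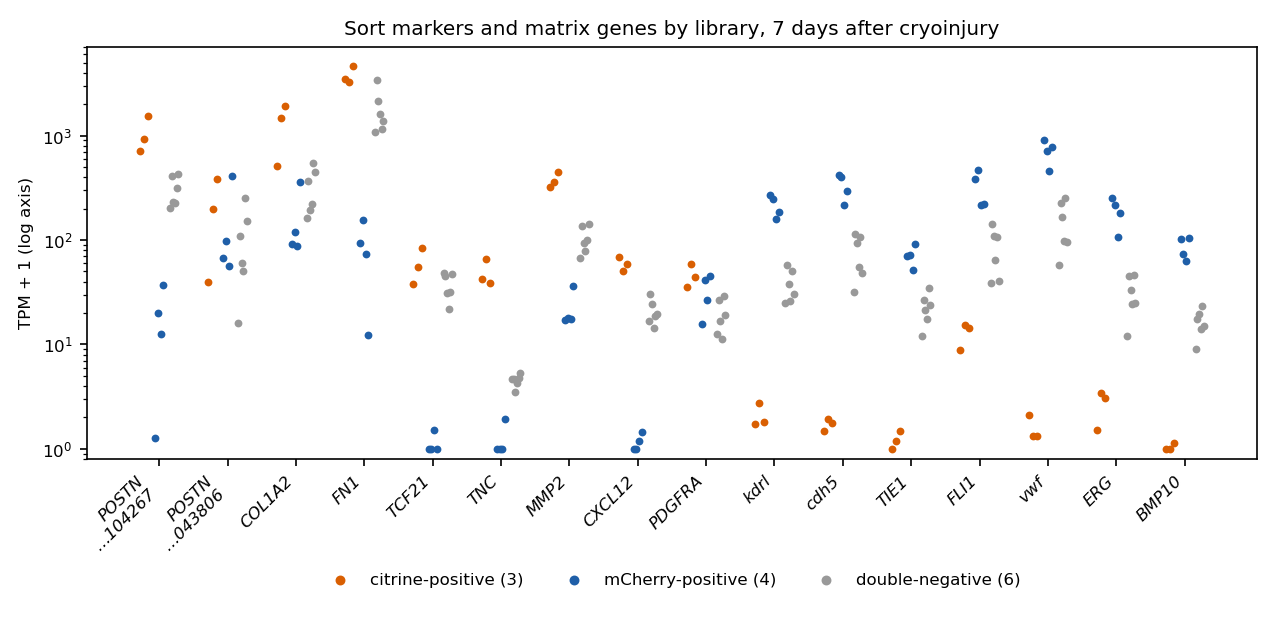
Level of 16 genes in each library, as TPM + 1 on a log axis. Orange points are the 3 citrine-positive and blue points the 4 mCherry-positive libraries at 7 dpi, and grey points the double-negative libraries at 7 dpi. Most matrix genes lie high in citrine-positive libraries, endothelial genes in mCherry-positive ones, and PDGFRA and POSTN (ENSDARG00000043806) overlap.

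Of 19039 gene IDs tested, 2268 (11.9%) were called, 922 higher (4.84%) and 1346 lower (7.07%) in citrine-positive cells, and 4724 had an unadjusted p under 0.05. The differences were large. Of the higher genes 685 exceeded a log2 fold change of 2 and 119 one of 4, and of the lower genes 857 and 172 went past the same sizes downward. In 148 of the higher genes all mCherry-positive libraries were listed at 0, and in 64 of the lower genes all citrine-positive ones. The libraries of both groups did not overlap for 18% of the genes tested, 6.36% with citrine-positive libraries the higher and 11.6% with them the lower. The balance of higher and lower calls depended on the scaling. The median log2 fold change over all genes was -0.19 with TPM as deposited and 0.13 after median-of-ratios scaling, and the calls were then 1549 higher and 956 lower (61.8% higher, against 40.7%). When 11 IDs that each exceeded 5% of a library were left out and TPM rescaled, 53.5% of the calls were higher. These 11 IDs held 56.3% to 57.6% of the TPM in citrine-positive and 15.3% to 57.2% in mCherry-positive libraries. With the pool number from the labels as a block over the 13 libraries at 7 dpi, limma called 1444 genes. Of these, 1320 were shared with the fit without the block, all in the same direction. With the block over the 2 pairs of pools 7 and 9 alone it called 0, with 2063 at an unadjusted p under 0.05. Fitted on the 7 libraries alone it called 1082.

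**Figure D2:**
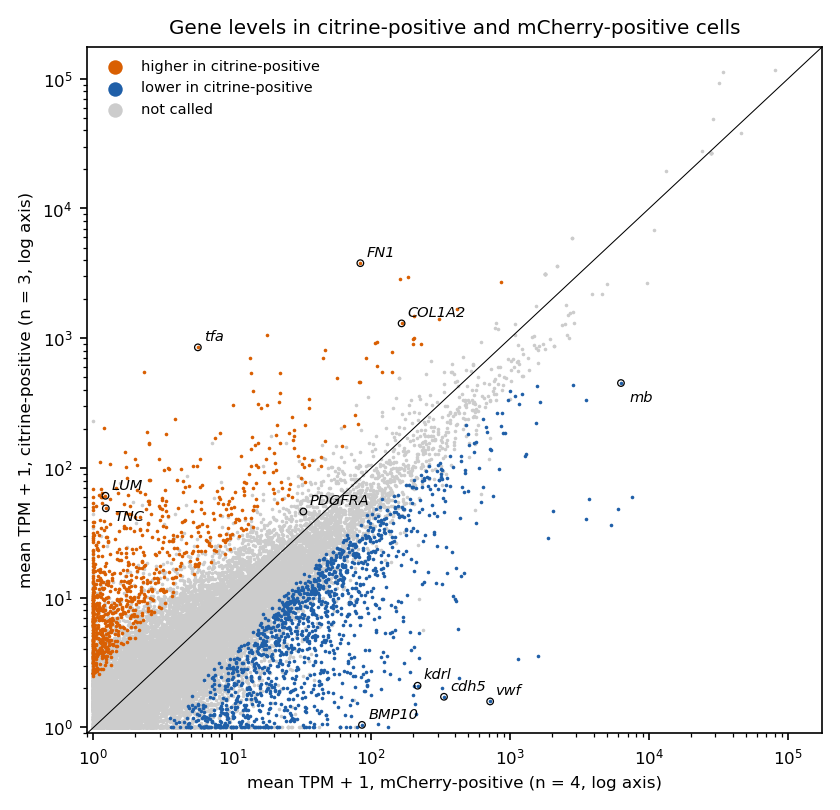
Mean TPM + 1 of each of 19039 genes in the 4 mCherry-positive (horizontal) and 3 citrine-positive libraries (vertical), both on log axes. Orange points are the 922 genes called higher and blue points the 1346 called lower in citrine-positive cells, grey points were not called, and named genes are labelled.

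Libraries of pools 9 and 10 stood apart, citrine-positive pools 9 and 10 and mCherry-positive pool 9. The IDs si:dkeyp-3b12.8 and si:dkeyp-3b12.11 together held 35.8% and 26.0% of the TPM in the citrine-positive libraries of pools 9 and 10 and 25.7% in the mCherry-positive library of pool 9, and at most 0.628% in the other 4 libraries compared. The ID si:dkeyp-3b12.10 went the other way, with 2.41% to 11.4% in those 4 libraries and 0% to 1.22% in the compared libraries of pools 9 and 10. With a batch term for pools 9 and 10 limma called 2236 genes, of which 1965 were shared with the fit without it. Within pools 5 to 8, 1 citrine-positive against 3 mCherry-positive libraries, 1825 genes were called, and within pools 9 and 10, 2 against 1, 536 were called. In both of these fits the single library is assumed to vary like the other groups. Of these calls 1249 and 517 were shared with the comparison over all pools, all in the same direction. The number of IDs at 1 TPM or more was 12291 to 15401 in citrine-positive and 12111 to 15738 in mCherry-positive libraries, and the read depth behind them is unknown.

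The largest rises in citrine-positive cells included genes of secreted and matrix proteins. tfa, which encodes the iron carrier transferrin, had 558, 1032 and 959 TPM in citrine-positive libraries, against 0, 2.1, 16.4 and 0.13 TPM in mCherry-positive libraries (log2 fold change 8.20 ± 0.74, adjusted p = 3.54e-07). DPT, dermatopontin of the collagen matrix, had 277, 485 and 878 TPM in citrine-positive libraries, against 0.29, 0.98, 3.25 and 0.69 TPM in mCherry-positive libraries (log2 fold change 7.89 ± 0.49, adjusted p = 3.95e-09). The hyaluronan link protein gene hapln1a had 44.0, 225 and 332 TPM in citrine-positive libraries, against 0, 0.10, 0.55 and 0.14 TPM in mCherry-positive libraries (log2 fold change 6.99 ± 0.60, adjusted p = 1.62e-07). In all 3 genes the mCherry-positive libraries lay at 16.4 TPM or less and the citrine-positive ones at 44.0 TPM or more. The largest rises and falls were taken only among genes whose groups did not overlap, so such separation follows from the choice. vmo1a (6.63 ± 0.38), the alcohol dehydrogenase gene adh8a (6.40 ± 0.54), tm4sf21a of the tetraspan superfamily (6.10 ± 0.73) and c6.1 (5.94 ± 0.50) followed, together with matrix genes described below. PTX3, a pentraxin of the innate immune response, had 189, 333 and 44.4 TPM in citrine-positive libraries, against 0, 2.51, 2.78 and 0.48 TPM in mCherry-positive libraries (log2 fold change 6.08 ± 0.71, adjusted p = 6.59e-06). Its level in citrine-positive pool 10 was the lowest of that sort. The secreted Wnt antagonist gene SFRP1 (ENSDARG00000035521) had 72.4, 56.1 and 74.2 TPM in citrine-positive libraries, against 0 in all mCherry-positive ones (adjusted p = 2.82e-08). A fold change named here moved by over 1.5 times in fold, without mCherry-positive pool 7 to 9.08 for tfa, without citrine-positive pool 7 to 7.86 for hapln1a, without mCherry-positive pool 6 to 7.03 for adh8a, without citrine-positive pool 9 to 5.46 for PTX3 and without citrine-positive pool 10 to 6.90 for PTX3.

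The largest falls in citrine-positive cells included genes of endothelium and of blood clotting. SPOCK3, a testican proteoglycan, had 5.01, 2.13 and 0.52 TPM in citrine-positive libraries, against 1987, 2157, 918 and 1310.2 TPM in mCherry-positive libraries (log2 fold change -8.95 ± 0.49, adjusted p = 9.05e-10). The clotting factor carrier gene vwf had 1.09, 0.33 and 0.34 TPM in citrine-positive libraries, against 912, 713, 455 and 785 TPM in mCherry-positive libraries (log2 fold change -8.81 ± 0.46, adjusted p = 9.05e-10), and f8, its partner coagulation factor VIII, had 60.0, 41.3 and 16.7 TPM in citrine-positive libraries, against 3517, 4071, 2850.4 and 3607 TPM in mCherry-positive libraries (log2 fold change -6.61 ± 0.46, adjusted p = 1.60e-08). Both were high in every mCherry-positive library, and f8 was the higher of the pair in all 7 libraries, on the TPM scale. The water channel gene AQP8 had 0.67, 5.15 and 1.25 TPM in citrine-positive libraries, against 1115, 1107, 1445 and 856 TPM in mCherry-positive libraries (log2 fold change -8.61 ± 0.41, adjusted p = 3.24e-10). E-selectin, sele, an adhesion molecule for leukocytes on activated endothelium, had 0.83, 1.34 and 0.87 TPM in citrine-positive libraries, against 362, 505, 229 and 188 TPM in mCherry-positive libraries (-7.22 ± 0.44). C-type natriuretic peptide, nppc, had 1.46, 2.80 and 0 TPM in citrine-positive libraries, against 974, 425, 275 and 46.4 TPM in mCherry-positive libraries (-7.01 ± 0.79), with mCherry-positive pool 9 the lowest of its sort. A pair of hormone genes of blood formation was among the falls. Erythropoietin, epoa, had 13.6, 0.09 and 0.57 TPM in citrine-positive libraries, against 741, 545, 255 and 148 TPM in mCherry-positive libraries (-6.91 ± 0.71). Thrombopoietin, thpo, was listed at 0 in all citrine-positive libraries and had 294, 126, 34.4 and 70.3 TPM in mCherry-positive ones (adjusted p = 3.06e-07). CYP1B1 (-6.83 ± 0.69), a cytochrome P450, pierce1 (-6.72 ± 0.71) and the transmembrane collagen gene col23a1b (-6.58 ± 0.76) were also among the largest falls. By leaving out single libraries, the change moved by over 1.5 times in fold, without mCherry-positive pool 5 to -6.39 for nppc, without mCherry-positive pool 9 to -7.85 for nppc, -7.44 for CYP1B1 and -7.34 for pierce1, without citrine-positive pool 7 to -8.07 for epoa and -5.55 for col23a1b, without citrine-positive pool 9 to -6.2 for epoa and without citrine-positive pool 10 to -7.87 for col23a1b.

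Pools 7 and 9 gave libraries of both sorts, so that each holds its own citrine-positive against mCherry-positive difference. The labels give the pool number as a tag and do not spell out that both sorts came from the same hearts. Of the 922 genes called higher, 907 were higher in citrine-positive cells within pool 7 and within pool 9, and of the 1346 called lower, 1320 were lower within both. Over all 19039 genes 20% were higher and 33.3% lower within both pools. The median difference of log2(TPM + 1) was 2.70 in pool 7 and 2.25 in pool 9 for genes called higher, and -2.08 in pool 7 and -1.79 in pool 9 for genes called lower. Of the 174 gene IDs given in the text that passed over all pools, 174 had the same direction within pools 5 to 8, where 138 passed, and 174 had it within pools 9 and 10, where 108 passed. These libraries are part of those that made the calls, so the counts describe the calls and are no second test of them.

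Collagen genes were mostly higher in citrine-positive cells. Of 10 fibrillar collagen genes tested 8 rose and 2 did not pass, with a median log2 fold change of 2.95 against -0.19 over all genes, and 4.84% of all genes were called higher. Fibrillar collagens form the ropes that give scar its strength. COL1A1, a chain of collagen I, had 493, 1806 and 2159 TPM in citrine-positive libraries, against 122, 154, 107 and 431 TPM in mCherry-positive libraries (log2 fold change 2.85 ± 0.55, adjusted p = 0.00141), and its relative col1a1a had 662, 1937 and 2463 TPM in citrine-positive libraries, against 340.2, 325, 229 and 757 TPM in mCherry-positive libraries (log2 fold change 1.98 ± 0.52, adjusted p = 0.0154). In both genes the citrine-positive library of pool 7 was the lowest of its sort, and for col1a1a it lay below the mCherry-positive library of pool 9. Chains of collagens V and XI, which set fibril width, were among those that rose. col5a3a had 51.0, 70.0 and 163 TPM in citrine-positive libraries, against 5.19, 0.72, 2.22 and 0.67 TPM in mCherry-positive libraries (log2 fold change 4.94 ± 0.54, adjusted p = 3.15e-06), and col11a1b had 97.5, 176 and 278 TPM in citrine-positive libraries, against 3.92, 11.1, 2.53 and 11.2 TPM in mCherry-positive libraries (log2 fold change 4.58 ± 0.51, adjusted p = 3.79e-06). The groups lay apart for both. COL2A1, best known from cartilage, had 7.53, 26.2 and 17.7 TPM in citrine-positive and 0, 0, 0.07 and 0.02 TPM in mCherry-positive libraries (4.00 ± 0.45), and COL11A1 5.67, 11.4 and 18.5 TPM in citrine-positive and 0, 0, 0.05 and 0.09 TPM in mCherry-positive libraries (3.50 ± 0.44). COL5A2 was abundant in both sorts, with 329, 696 and 979 TPM in citrine-positive libraries, against 221, 308, 156 and 382 TPM in mCherry-positive libraries, and did not pass (log2 fold change 1.26 ± 0.44, adjusted p = 0.0704). COL11A2 was near 0 in both sorts. With 1 library left out, the change moved by over 1.5 times in fold, without citrine-positive pool 7 to 3.52 for COL1A1. The call was lost without citrine-positive pool 9 for col1a1a (adjusted p = 0.0763) and without citrine-positive pool 10 for col1a1a (0.0996). A call was gained without mCherry-positive pool 9 for COL5A2 (adjusted p = 0.0399) and without citrine-positive pool 7 for COL5A2 (0.0207). Calls were not made for COL1A1 (adjusted p = 0.0595) and col1a1a (0.125) on the 7 libraries alone. The median-of-ratios scaling called COL5A2 (adjusted p = 8.09e-04).

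Among 17 other collagen genes 12 rose and 5 did not pass (median 2.28), where 4.84% of all genes were called higher. Both genes of collagen XVIII, a multiplexin of basement membranes, rose. col18a1b had 50.8, 84.0 and 182 TPM in citrine-positive libraries, against 0.51, 0.15, 0.59 and 0.05 TPM in mCherry-positive libraries (log2 fold change 6.16 ± 0.43, adjusted p = 1.60e-08) and col18a1a had 45.8, 49.9 and 89.2 TPM in citrine-positive and 1.26, 0.09, 1.56 and 2.51 TPM in mCherry-positive libraries (4.79 ± 0.50). In both genes every citrine-positive library exceeded every mCherry-positive one by a wide margin. COL8A1, of the short-chain collagens, had 14.2, 40.1 and 58.1 TPM in citrine-positive and 0, 0, 0 and 0.03 TPM in mCherry-positive libraries (5.05 ± 0.63), and col21a1, a fibril-associated collagen, 11.9, 29.8 and 43.1 TPM in citrine-positive and 0, 0, 0 and 0.94 TPM in mCherry-positive libraries (4.46 ± 0.53). COL12A1 (ENSDARG00000019601), a fibril-associated collagen and among the largest rises, had 245, 187 and 279.8 TPM in citrine-positive libraries, against 0.10, 3.00, 2.49 and 5.81 TPM in mCherry-positive libraries (log2 fold change 6.2 ± 0.49, adjusted p = 7.32e-08), with no overlap, which that ranking required. Collagen VI, the beaded filament around cells, was present in both sorts. COL6A3 had 454, 659.9 and 977 TPM in citrine-positive libraries, against 88.0, 89.8, 71.2 and 115 TPM in mCherry-positive libraries (log2 fold change 2.87 ± 0.38, adjusted p = 2.67e-05). col16a1 had 94.5, 322 and 392 TPM in citrine-positive libraries, against 138, 113, 106 and 118 TPM in mCherry-positive libraries and did not pass (log2 fold change 0.95 ± 0.42, adjusted p = 0.166). Its citrine-positive library of pool 7 lay below all mCherry-positive libraries. The transmembrane collagen gene col23a1b, given with the largest falls, was outside both collagen lists and was called lower (log2 fold change -6.58). The test was passed without citrine-positive pool 7 for col16a1 (adjusted p = 0.00787). A call after median-of-ratios scaling was made for col16a1 (adjusted p = 0.0053).

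Matricellular and provisional matrix genes, whose products modulate cell contact in a wound, were higher in larger number than lower. Of 22 tested 13 were higher, 1 lower and 8 did not pass (median 2.71). The lower count was near the 7.07% of all genes called lower, while 4.84% were called higher. Fibronectin, the first scaffold of a wound, was among those that rose. FN1 (ENSDARG00000006526) had 3497, 3239 and 4630.0 TPM in citrine-positive libraries, against 91.9, 153, 73.1 and 11.2 TPM in mCherry-positive libraries (log2 fold change 5.96 ± 0.62, adjusted p = 1.75e-06), and FN1 (ENSDARG00000019815) had 774, 705 and 946 TPM in citrine-positive libraries, against 16.4, 29.2, 37.1 and 99.6 TPM in mCherry-positive libraries (log2 fold change 4.41 ± 0.49, adjusted p = 3.79e-06). Both IDs differed in the same direction, while mCherry-positive pool 9 was the lowest of its sort for one and the highest for the other. Tenascin C, TNC, had 41.8, 64.1 and 37.8 TPM in citrine-positive and 0, 0, 0 and 0.91 TPM in mCherry-positive libraries (5.34 ± 0.44). The thrombospondins, which bind matrix and growth factors, did not all go the same way. THBS4 (ENSDARG00000020072) had 17.8, 57.4 and 82.8 TPM in citrine-positive libraries, against 0 in all mCherry-positive ones (adjusted p = 6.59e-06). THBS4 (ENSDARG00000102777) had 20.2, 149.6 and 14.4 TPM in citrine-positive and 0, 0, 0 and 0.38 TPM in mCherry-positive libraries (5.08 ± 0.64), with citrine-positive pool 9 the highest. THBS3 (ENSDARG00000012060) was the member that fell, with 1.48, 3.64 and 4.12 TPM in citrine-positive and 12.3, 18.2, 13.5 and 13.1 TPM in mCherry-positive libraries (-1.96 ± 0.40). THBS3 (ENSDARG00000077641) (0.02 ± 0.37) and CCN2 (0.85 ± 0.52), the connective tissue growth factor gene, did not pass and were abundant in both sorts, CCN2 at 245, 328 and 344 TPM in citrine-positive and 180.4, 164, 83.9 and 314 TPM in mCherry-positive libraries. Some of these changes rested on 1 library more than on others and moved by over 1.5 times in fold, without mCherry-positive pool 9 to 5.20 for FN1 (ENSDARG00000006526), without citrine-positive pool 9 to 4.06 for THBS4 (ENSDARG00000102777) and without citrine-positive pool 10 to 5.70 for THBS4 (ENSDARG00000102777). Median-of-ratios scaling gave a call for CCN2 (adjusted p = 0.0329).

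Basement membrane genes, which both sorts of cell can make, were higher in larger number than lower. Of 18 tested 8 rose, 1 fell and 9 did not pass (median 1.03). The lower count was near the 7.07% of all genes called lower, while 4.84% were called higher. The count of rises was 5 without mCherry-positive pool 7 and 4 without citrine-positive pool 10. The main network chains COL4A1 (0.39 ± 0.41) and COL4A2 (0.93 ± 0.39) were abundant in both and did not pass, COL4A1 with 103, 217 and 453 TPM in citrine-positive libraries, against 166, 194, 129 and 176 TPM in mCherry-positive libraries. Nidogen, which links laminin to collagen IV, was higher under both IDs, NID1 (ENSDARG00000103129) (2.51 ± 0.44) and NID1 (ENSDARG00000068710) (1.81 ± 0.35). LAMB2 had 29.6, 44.6 and 56.4 TPM in citrine-positive and 6.49, 5.34, 3.29 and 20.3 TPM in mCherry-positive libraries (2.41 ± 0.52). lamc3 reached 8.20, 61.0 and 3.60 TPM in citrine-positive and 0, 0, 0 and 0.69 TPM in mCherry-positive libraries (3.60 ± 0.60), the level in citrine-positive pool 9 standing above the rest. Agrin, AGRN, a heparan sulfate proteoglycan, went the other way, with 17.5, 36.8 and 55.6 TPM in citrine-positive libraries, against 162, 158, 121 and 129.9 TPM in mCherry-positive libraries (log2 fold change -2.07 ± 0.38, adjusted p = 9.32e-04). No library of one sort reached the range of the other. Single libraries moved some of these changes by over 1.5 times in fold, without citrine-positive pool 9 to 2.51 for lamc3 and without citrine-positive pool 10 to 4.39 for lamc3. A call was made without citrine-positive pool 7 for COL4A2 (adjusted p = 0.0377). Not past the test were LAMB2 (adjusted p = 0.0571) and lamc3 (0.0683) on the 7 libraries alone. The median-of-ratios scaling called COL4A2 (adjusted p = 0.00297).

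Proteoglycan and hyaluronan genes were mostly higher in citrine-positive cells, 11 of 20 against 1 lower (median 2.28). Over all genes 4.84% were called higher and 7.07% lower, so the lower count was near the share over all genes. Lumican, LUM, a small leucine-rich proteoglycan of collagen fibrils, had 45.6, 57.0 and 77.5 TPM in citrine-positive libraries, against 0, 0, 0.30 and 0.58 TPM in mCherry-positive libraries (log2 fold change 5.64 ± 0.51, adjusted p = 3.93e-07). Asporin, ASPN, had 24.2, 11.6 and 38.0 TPM in citrine-positive and 0, 0, 0.14 and 0 TPM in mCherry-positive libraries (4.49 ± 0.56), and podocan, PODN, 5.30, 6.59 and 10.8 TPM in citrine-positive libraries while listed at 0 in all mCherry-positive ones. Biglycan, BGN, of the same family, was the one that fell, with 1.79, 8.71 and 2.19 TPM in citrine-positive and 22.5, 19.4, 9.14 and 11.7 TPM in mCherry-positive libraries (-1.83 ± 0.57). The syndecan genes sdc4 (-0.43 ± 0.32) and sdc2 (1.05 ± 0.47), for cell-surface proteoglycans, were abundant in both sorts and did not pass. Elastic fibre and microfibril genes gave 7 higher and 4 lower of 18 (median 0.32). The microfibril gene mfap2 had 99.5, 155 and 251 TPM in citrine-positive libraries, against 8.00, 8.03, 2.14 and 7.96 TPM in mCherry-positive libraries (log2 fold change 4.51 ± 0.50, adjusted p = 3.71e-06). mfap5, another microfibril gene and one of the largest rises, had 80.0, 125 and 147 TPM in citrine-positive libraries, against 0, 0, 1.04 and 2.89 TPM in mCherry-positive libraries (log2 fold change 6.09 ± 0.67, adjusted p = 3.50e-06), and the elastic fibre gene emilin1a was higher (3.20 ± 0.53). Of the 4 that fell, 3 carried the symbol MFAP4, which in zebrafish is used as a macrophage marker, among them MFAP4 (ENSDARG00000090783) with 6.08, 5.07 and 1.75 TPM in citrine-positive and 239.9, 132, 24.2 and 145 TPM in mCherry-positive libraries (-4.41 ± 0.70). Leaving out 1 library moved a log2 fold change by over 1.5 times in fold, without mCherry-positive pool 7 to -5.09 for MFAP4. No call was made without mCherry-positive pool 5 for BGN (adjusted p = 0.11), without mCherry-positive pool 6 for BGN (0.101), without citrine-positive pool 7 for BGN (0.166) and without citrine-positive pool 10 for BGN (0.158). The test did not call BGN (adjusted p = 0.172) with the pool as a block over 13 libraries, and BGN (0.131) on the 7 libraries alone, and BGN (0.0616) after median-of-ratios scaling. A call after median-of-ratios scaling was made for sdc2 (adjusted p = 0.00315).

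Enzymes that cut and finish the matrix were higher in citrine-positive cells in larger number than lower. Of 33 matrix protease and inhibitor genes 19 rose, 4 fell and 10 did not pass (median 1.68). Leaving out citrine-positive pool 7, 9 or 10, or mCherry-positive pool 5 or 6, left 2 falls each. Of all genes 4.84% were called higher and 7.07% lower. Gelatinase A, MMP2, had 318, 362 and 443 TPM in citrine-positive libraries, against 16.2, 16.8, 16.3 and 35 TPM in mCherry-positive libraries (log2 fold change 4.15 ± 0.42, adjusted p = 1.36e-06). serpinf1, a secreted serpin that restrains vessel growth in mammals, had 14.8, 35.6 and 38.5 TPM in citrine-positive and 0, 0, 0 and 0.04 TPM in mCherry-positive libraries (4.81 ± 0.53). The proteoglycan-cutting proteases ADAMTS8 (ENSDARG00000058252) (3.93 ± 0.43) and ADAMTS15 (ENSDARG00000033544) (3.74 ± 0.43) were likewise higher, while ADAMTS5 was lower (-2.01 ± 0.46). The metalloprotease gene mmp25b was lower (-1.97 ± 0.60). The membrane-bound protease inhibitor gene RECK had 54.1, 94.6 and 90.7 TPM in citrine-positive and 416, 282, 241 and 283 TPM in mCherry-positive libraries (-1.93 ± 0.35). Of 37 collagen processing and crosslinking genes 8 rose and 29 did not pass, and after median-of-ratios scaling 19 rose, and without citrine-positive pool 10, 5 rose. The procollagen protease enhancer gene pcolcea, one of the largest rises, had 139, 141 and 269.8 TPM in citrine-positive libraries, against 5.01, 0.28, 1.24 and 2.74 TPM in mCherry-positive libraries (log2 fold change 5.95 ± 0.61, adjusted p = 1.63e-06). Transglutaminase, TGM2 (ENSDARG00000074094), had 159, 219 and 361 TPM in citrine-positive libraries, against 5.68, 34.6, 7.34 and 55.2 TPM in mCherry-positive libraries (log2 fold change 3.68 ± 0.64, adjusted p = 5.04e-04). The procollagen protease gene BMP1 (ENSDARG00000028071) (2.92 ± 0.43) and the lysyl oxidase gene LOXL2 (2.84 ± 0.59) rose, while the lysyl hydroxylase gene PLOD2, with 216, 278 and 414 TPM in citrine-positive libraries, against 301, 414, 166 and 214 TPM in mCherry-positive libraries, did not pass (log2 fold change 0.18 ± 0.44, adjusted p = 0.857). The test was no longer passed without mCherry-positive pool 5 for mmp25b (adjusted p = 0.109), without mCherry-positive pool 6 for mmp25b (0.067), without citrine-positive pool 7 for mmp25b (0.102), without citrine-positive pool 9 for mmp25b (0.0894) and without citrine-positive pool 10 for mmp25b (0.0725). Missing the threshold were ADAMTS5 (adjusted p = 0.058) and mmp25b (0.26) with the pool as a block over 13 libraries, and ADAMTS5 (0.0685), mmp25b (0.193) and LOXL2 (0.0589) on the 7 libraries alone, and ADAMTS5 (0.0509) after median-of-ratios scaling.

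**Figure D3:**
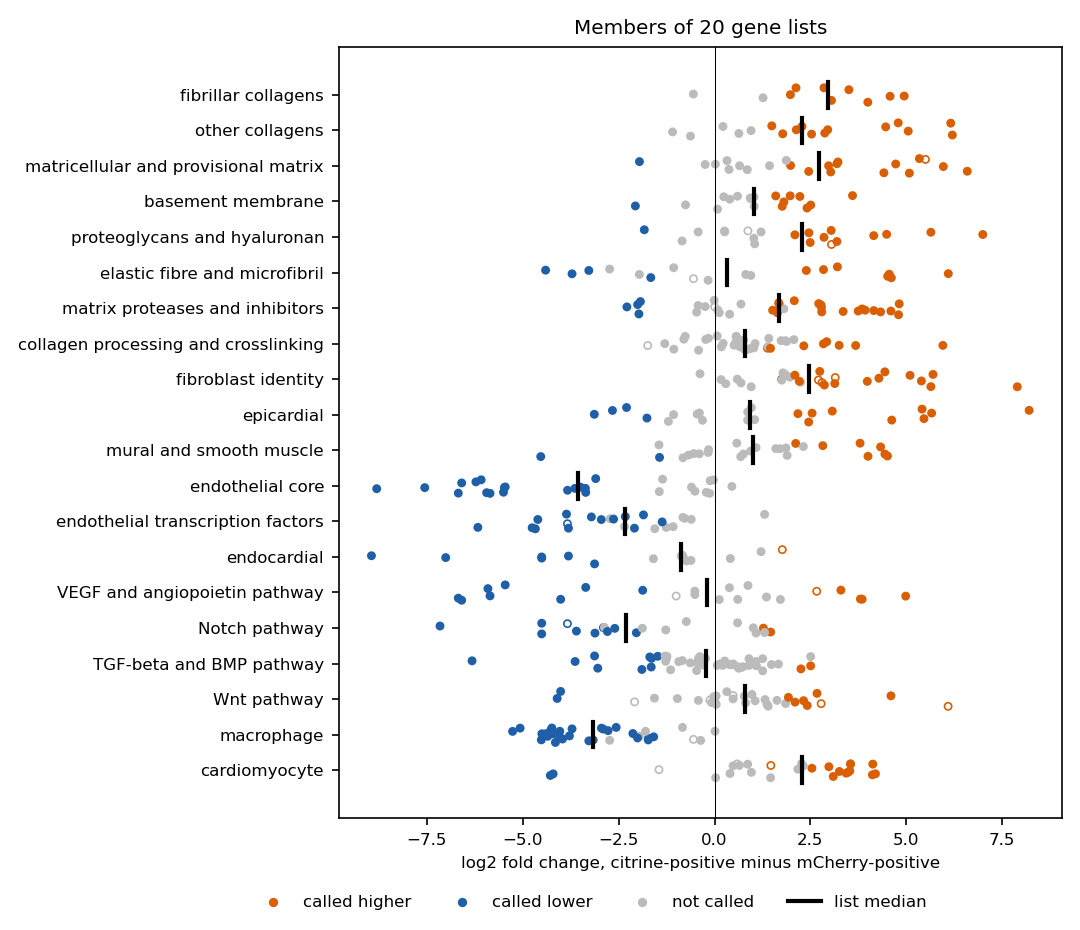
Log2 fold change (citrine-positive minus mCherry-positive, log2(TPM + 1) scale) of every tested member of 20 gene lists. Orange and blue points are genes called higher and lower in citrine-positive cells, grey points were not called, and open points are genes listed at 0 in a whole group, whose fitted value is no fold change, and black bars are list medians. The matrix lists lie mostly right of 0, the endothelial and Notch lists left of it, and the TGF-beta list on both sides.

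Genes used to tell fibroblasts from other cells were mostly higher, 17 of 28 with 11 not passing (median 2.47). The list shares lumican and other matrix genes with those above. Of all genes 4.84% were called higher and 7.07% lower. The chemokine gene CXCL12 had 68.3, 50.0 and 57.8 TPM in citrine-positive libraries, against 0, 0, 0.18 and 0.45 TPM in mCherry-positive libraries (log2 fold change 5.69 ± 0.40, adjusted p = 1.90e-08). The mesenchymal transcription factor gene twist1a had 57.6, 27.0 and 31.9 TPM in citrine-positive and 0, 0, 0.49 and 0 TPM in mCherry-positive libraries (5.10 ± 0.52). These values put the mCherry-positive libraries below 1 TPM for both genes. MXRA8 (ENSDARG00000062129), a matrix remodelling gene, did not pass, with 62.5, 103 and 175 TPM in citrine-positive libraries, against 12.9, 50.0, 2.97 and 85.8 TPM in mCherry-positive libraries, and its groups overlapped. Among 14 transcription factors of the epithelial-mesenchymal transition 5 rose and 9 did not pass. PRRX1 (ENSDARG00000033971), of limb and mesenchyme, had 27.8, 22.4 and 17.4 TPM in citrine-positive and 0, 0, 0.29 and 0 TPM in mCherry-positive libraries (4.44 ± 0.61). PRRX1 (ENSDARG00000042027) had 6.40, 2.72 and 11.2 TPM in citrine-positive libraries, against 0 in all mCherry-positive ones. The Slug gene snai2 had 51.1, 24.9 and 27.9 TPM in citrine-positive and 4.50, 3.11, 0.09 and 0.89 TPM in mCherry-positive libraries (3.70 ± 0.57). The zinc finger genes zeb2a, at 48.2, 70.5 and 111 TPM in citrine-positive and 167, 146, 104 and 129 TPM in mCherry-positive libraries, and ZEB1 (-0.06 ± 0.42) did not pass. A call was gained without mCherry-positive pool 6 for MXRA8 (adjusted p = 0.0478) and without mCherry-positive pool 9 for MXRA8 (0.0126). Median-of-ratios scaling gave a call for MXRA8 (adjusted p = 0.0129).

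Epicardial genes, of the outer layer from which cardiac fibroblasts arise, gave 9 higher, 4 lower and 9 not passing of 22 (median 0.91). Without citrine-positive pool 9, 2 were lower. Of all genes 4.84% were called higher and 7.07% lower. The keratin gene krt4 had 402, 1425 and 264 TPM in citrine-positive libraries, against 21.7, 5.78, 14.2 and 8.31 TPM in mCherry-positive libraries (log2 fold change 5.46 ± 0.52, adjusted p = 6.37e-07), and the chaperone gene clusterin, CLU, 673, 517 and 417 TPM in citrine-positive libraries, against 24.3, 24.4, 12.7 and 23.0 TPM in mCherry-positive libraries (log2 fold change 4.62 ± 0.39, adjusted p = 1.33e-07). TBX18, an epicardial transcription factor, had 11.2, 76.5 and 114 TPM in citrine-positive and 0, 0.42, 0.12 and 0 TPM in mCherry-positive libraries (5.41 ± 0.71). Other genes of the list were higher in mCherry-positive cells. ALDH1A2, the retinoic acid synthesis enzyme made by epicardium and endocardium of the injured zebrafish heart, had 59.0, 38.5 and 61.1 TPM in citrine-positive libraries, against 333, 214, 102 and 138 TPM in mCherry-positive libraries (log2 fold change -1.76 ± 0.45, adjusted p = 0.0126). The sialomucin gene podxl, of epicardium and endothelium, had 28.4, 32.1 and 70.3 TPM in citrine-positive and 465, 299, 192 and 169 TPM in mCherry-positive libraries (-2.66 ± 0.49), and the keratin gene krt18a.1 598, 157 and 204 TPM in citrine-positive and 2528, 2518, 1097 and 430.4 TPM in mCherry-positive libraries (-2.30 ± 0.65). Its partner keratin krt8 was abundant in both, at 1186, 918 and 1055 TPM in citrine-positive and 3912, 2938, 1774 and 1667 TPM in mCherry-positive libraries, and did not pass (-1.2 ± 0.43). A fold change named here moved by over 1.5 times in fold, without citrine-positive pool 9 to 4.75 for krt4, without citrine-positive pool 7 to 6.39 for TBX18 and without citrine-positive pool 10 to 4.77 for TBX18. A call did not hold without citrine-positive pool 9 for ALDH1A2 (adjusted p = 0.071) and krt18a.1 (0.129), without mCherry-positive pool 5 for krt18a.1 (0.08), without mCherry-positive pool 6 for krt18a.1 (0.0819) and without citrine-positive pool 10 for krt18a.1 (0.1). The test was passed without mCherry-positive pool 9 for krt8 (adjusted p = 0.0436). Other fits did not call ALDH1A2 (adjusted p = 0.107) and krt18a.1 (0.0992) with the pool as a block over 13 libraries, and ALDH1A2 (0.0658) and krt18a.1 (0.159) on the 7 libraries alone, and krt18a.1 (0.0551) after median-of-ratios scaling.

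Mural and smooth muscle genes, of the contractile cells around vessels, were higher for 7, lower for 2 and not past the test for 17 of 26 (median 1.01). The lower count was near the 7.07% of all genes called lower, while 4.84% were called higher. With median-of-ratios scaling 11 were higher and 1 lower. The pericyte gene RGS5 had 21.2, 14.7 and 9.16 TPM in citrine-positive and 0, 0, 0 and 0.47 TPM in mCherry-positive libraries (3.79 ± 0.55), and the NG2 proteoglycan gene CSPG4 24.3, 23.1 and 17.6 TPM in citrine-positive and 0, 0.07, 0.91 and 0.90 TPM in mCherry-positive libraries (4.00 ± 0.48). Both were below 1 TPM in every mCherry-positive library. The transgelin symbol, a contractile marker, had a called and an uncalled ID. TAGLN (ENSDARG00000045408) had 169, 202 and 144 TPM in citrine-positive libraries, against 0.40, 4.03, 11.5 and 35 TPM in mCherry-positive libraries (log2 fold change 4.51 ± 0.77, adjusted p = 4.33e-04), whereas TAGLN (ENSDARG00000033466) had 194, 189 and 230.0 TPM in citrine-positive libraries, against 422, 303, 228 and 177 TPM in mCherry-positive libraries (log2 fold change -0.40 ± 0.38, adjusted p = 0.572). MYH11, the smooth muscle myosin heavy chain, was lower in citrine-positive cells, at 20.8, 23.9 and 10.7 TPM against 52.3, 56.0, 26.0 and 75.7 TPM in mCherry-positive libraries (-1.44 ± 0.45), and so was the smoothelin gene smtnb, at 3.25, 1.84 and 7.92 TPM against 155, 149.8, 149.8 and 40.3 TPM in mCherry-positive libraries (-4.53 ± 0.54). By leaving out single libraries, the change moved by over 1.5 times in fold, without mCherry-positive pool 5 to 3.70 for TAGLN (ENSDARG00000045408) and without mCherry-positive pool 9 to 5.26 for TAGLN (ENSDARG00000045408). The call was lost without mCherry-positive pool 5 for MYH11 (adjusted p = 0.0872), without mCherry-positive pool 6 for MYH11 (0.0983), without mCherry-positive pool 9 for MYH11 (0.0976), without citrine-positive pool 7 for MYH11 (0.0688), without citrine-positive pool 9 for MYH11 (0.0555) and without citrine-positive pool 10 for MYH11 (0.212). Calls were not made for MYH11 (adjusted p = 0.177) with the pool as a block over 13 libraries, and MYH11 (0.126) on the 7 libraries alone, and MYH11 (0.1) after median-of-ratios scaling.

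Endothelial genes were lower in citrine-positive cells. Of 26 core endothelial genes 17 were lower in citrine-positive cells and 9 did not pass (median -3.57), where 7.07% of all genes were called lower. Their summed level was 106 to 183 TPM in citrine-positive libraries, against 2390.4 to 3764 TPM in mCherry-positive cells, and was 417 to 1114 TPM in double-negative libraries. Within the list, mmrn2b (-1.44 ± 0.49) and TSPAN18 (ENSDARG00000056656) (-1.36 ± 0.53) were the most abundant that did not pass. Of 23 endothelial transcription factor genes 14 were lower. ERG, an ETS factor of endothelium, had 0.51, 2.39 and 2.07 TPM in citrine-positive libraries, against 252, 214, 106 and 182 TPM in mCherry-positive libraries (log2 fold change -6.17 ± 0.48, adjusted p = 6.86e-08). The forkhead genes FOXC1 (-4.67 ± 0.43) and FOXO1 (ENSDARG00000061549) (-3.86 ± 0.47) followed. MEF2C (ENSDARG00000009418) was abundant in both sorts and did not pass, with 116, 138 and 129 TPM in citrine-positive libraries, against 302, 282, 114 and 233 TPM in mCherry-positive libraries (log2 fold change -0.78 ± 0.41, adjusted p = 0.26). A call was made without mCherry-positive pool 7 for mmrn2b (adjusted p = 0.0496) and without citrine-positive pool 10 for mmrn2b (0.0437).

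Endocardial genes were lower for 6 of 15 and higher for 1 (median -0.87), where 7.07% of all genes were called lower and 4.84% higher. The higher count was near the share over all genes. NOTCH1 (ENSDARG00000052094) and the flow-responsive factor gene klf2b were among the lower, klf2b with 10.1, 8.96 and 4.22 TPM in citrine-positive libraries, against 196, 175, 140.2 and 37.1 TPM in mCherry-positive libraries (log2 fold change -3.81 ± 0.54, adjusted p = 6.68e-05). klf2a, its near relative, had 61.2, 51.5 and 96.0 TPM in citrine-positive and 149, 145, 130.0 and 73.2 TPM in mCherry-positive libraries and did not pass (-0.83 ± 0.40). The member that rose was neuregulin 1, NRG1, a growth factor for cardiomyocytes, with 2.02, 3.76 and 1.73 TPM in citrine-positive libraries, and it was listed at 0 in all mCherry-positive ones (adjusted p = 0.0245). Among 21 genes of coronary, arterial, venous and lymphatic vessels 8 fell, 1 rose and 12 did not pass (median -1.22), the count of rises again near that share. Without citrine-positive pool 10, 5 fell. The scavenger receptor gene stab1 had 2.76, 0.84 and 2.12 TPM in citrine-positive libraries, against 89.0, 67.3, 45.2 and 87.6 TPM in mCherry-positive libraries (log2 fold change -4.67 ± 0.46, adjusted p = 1.09e-06). The apelin receptor gene aplnrb was also lower (-3.65 ± 0.46), as was the venous factor gene NR2F2 (-1.85 ± 0.37), which was still at 11.4, 9.50 and 8.04 TPM in citrine-positive libraries. No call was made without citrine-positive pool 9 for NRG1 (adjusted p = 0.109). Not past the test were NRG1 (adjusted p = 0.0796) with the pool as a block over 13 libraries.

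Genes of vessel signalling moved in both directions. Of 22 VEGF and angiopoietin genes 5 rose and 8 fell, where 4.84% of all genes were called higher and 7.07% lower. The list median was -0.20 and became 0.23 with median-of-ratios scaling. Ligands were among those that rose. VEGFA (ENSDARG00000103542) had 24.4, 28.8 and 62.2 TPM in citrine-positive libraries, against 8.88, 2.59, 0.86 and 1.86 TPM in mCherry-positive libraries (log2 fold change 3.29 ± 0.53, adjusted p = 2.72e-04). Angiopoietin 1, ANGPT1, the ligand of the TIE2 receptor, had 10.4, 29.4 and 12.8 TPM in citrine-positive and 0, 0.23, 0 and 0.72 TPM in mCherry-positive libraries (3.8 ± 0.48), and the angiopoietin-like gene angptl7 48.4, 115 and 35.2 TPM in citrine-positive and 2.46, 0.32, 0.18 and 1.28 TPM in mCherry-positive libraries (4.98 ± 0.64). The co-receptor gene NRP2 (ENSDARG00000096546) was higher (3.85 ± 0.51). Receptor genes kdrl and TIE1, described with the sort markers, and the endothelial phosphatase gene ptprb, at 0.31, 1.82 and 0.84 TPM in citrine-positive and 143, 118, 124 and 77.5 TPM in mCherry-positive libraries (-5.91 ± 0.39), were among the lower. The VEGF receptor gene flt1 had 2.47, 0.84 and 0 TPM in citrine-positive libraries, against 241, 278, 225 and 66.6 TPM in mCherry-positive libraries (log2 fold change -6.59 ± 0.51, adjusted p = 6.49e-08), one of the largest falls.

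Notch pathway genes were lower for 10, higher for 2 and not past the test for 8 of 20 (median -2.32). Of all genes 7.07% were called lower and 4.84% higher. The receptor symbol NOTCH1 was lower under both named IDs. NOTCH1 (ENSDARG00000052094) had 8.39, 12.6 and 15.2 TPM in citrine-positive libraries, against 357, 281, 271 and 256 TPM in mCherry-positive libraries (log2 fold change -4.51 ± 0.33, adjusted p = 3.53e-08), and NOTCH1 (ENSDARG00000103554) had 2.5, 0.89 and 1.14 TPM in citrine-positive libraries, against 135, 20.3, 28.3 and 107 TPM in mCherry-positive libraries (log2 fold change -4.51 ± 0.74, adjusted p = 3.15e-04), with mCherry-positive levels that varied more for the second ID. The ligand gene dll4, of arterial and sprouting endothelium and among the largest falls, had 0.42, 0.23 and 0.16 TPM in citrine-positive libraries, against 354, 264, 146 and 76.1 TPM in mCherry-positive libraries (log2 fold change -7.16 ± 0.51, adjusted p = 2.45e-08). The feedback regulator gene NRARP (ENSDARG00000018958) had 1.29, 2.99 and 4.57 TPM in citrine-positive and 107, 44.6, 32.5 and 23.8 TPM in mCherry-positive libraries (-3.60 ± 0.47). Jagged ligand genes jag1b (1.27 ± 0.41) and jag1a (1.46 ± 0.42) were the 2 that rose, jag1b at 13.6, 20.3 and 28.5 TPM in citrine-positive and 10.7, 7.14, 7.07 and 6.32 TPM in mCherry-positive libraries. The receptor gene notch2 had 38.8, 35.4 and 44.0 TPM in citrine-positive and 27.1, 34, 21.1 and 21.9 TPM in mCherry-positive libraries. It did not pass (0.60 ± 0.36), though every citrine-positive library exceeded every mCherry-positive one. The target gene HES1 had 285, 35.3 and 29.5 TPM in citrine-positive libraries, against 1144, 1026, 535 and 97.6 TPM in mCherry-positive libraries and did not pass (log2 fold change -2.87 ± 0.96, adjusted p = 0.0576). Citrine-positive pools 9 and 10 and mCherry-positive pool 9 were the low libraries. The test was no longer passed without mCherry-positive pool 6 for jag1b (adjusted p = 0.0931) and jag1a (0.0864), without mCherry-positive pool 7 for jag1b (0.074), without mCherry-positive pool 9 for jag1b (0.0803), without citrine-positive pool 9 for jag1b (0.124) and jag1a (0.0564), without citrine-positive pool 10 for jag1b (0.214), without mCherry-positive pool 5 for jag1a (0.0817) and without citrine-positive pool 7 for jag1a (0.103). A call was gained without mCherry-positive pool 9 for HES1 (adjusted p = 0.0109) and without citrine-positive pool 7 for HES1 (0.0147). The test did not call jag1b (adjusted p = 0.189) and jag1a (0.13) with the pool as a block over 13 libraries, and jag1b (0.109) and jag1a (0.124) on the 7 libraries alone. The median-of-ratios scaling called notch2 (adjusted p = 0.0186).

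TGF-beta and BMP genes, a family of secreted factors that drive matrix formation and valve development, gave 2 higher and 9 lower of 47, with 36 not passing. Over all genes 4.84% were called higher and 7.07% lower, so the higher count was near the share over all genes. The median was -0.24 and became 0.31 with median-of-ratios scaling. Ligand genes were among the falls. BMP10, a heart-made ligand, had 0, 0 and 0.14 TPM in citrine-positive libraries, against 101, 71.8, 61.5 and 104 TPM in mCherry-positive libraries (log2 fold change -6.32 ± 0.38, adjusted p = 2.34e-09). BMP6 had 10.0, 2.65 and 2.65 TPM in citrine-positive libraries, against 35.6, 174, 32.5 and 85.5 TPM in mCherry-positive libraries (log2 fold change -3.64 ± 0.64, adjusted p = 6.44e-04), and bmp16 4.26, 3.73 and 7.90 TPM in citrine-positive libraries, against 32.9, 62.5, 46.5 and 60.1 TPM in mCherry-positive libraries (log2 fold change -3.05 ± 0.47, adjusted p = 1.49e-04). In each of the 3 genes the lowest mCherry-positive library exceeded the highest citrine-positive one. The counts were 6 higher and 8 lower after that scaling, and 4 higher without mCherry-positive pool 5. The activin subunit gene INHBA (ENSDARG00000012671) rose, with 38.2, 27.0 and 23.6 TPM in citrine-positive and 9.59, 14.4, 1.2 and 3.40 TPM in mCherry-positive libraries (2.25 ± 0.56). The other gene that rose was acvrl1, a receptor of BMP9 and BMP10 known from endothelium, with 20.5, 47.2 and 88.6 TPM in citrine-positive libraries, against 7.18, 5.27, 4.47 and 13.4 TPM in mCherry-positive libraries (log2 fold change 2.51 ± 0.49, adjusted p = 0.00166). The BMP receptor gene BMPR1A (ENSDARG00000019728) was lower (-1.90 ± 0.43), and the target gene ID3 (-0.30 ± 0.45) and follistatin-like FSTL1 (ENSDARG00000039576) (0.61 ± 0.50) did not pass. A call did not hold without citrine-positive pool 7 for INHBA (adjusted p = 0.0512). Missing the threshold were BMPR1A (adjusted p = 0.067) with the pool as a block over 13 libraries, and INHBA (0.123) on the 7 libraries alone. A call after median-of-ratios scaling was made for FSTL1 (adjusted p = 0.0335).

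Wnt genes gave 8 higher and 2 lower of 32 (median 0.79), and several of the higher ones encode secreted modulators. The lower count was near the 7.07% of all genes called lower, while 4.84% were called higher. The higher count was 5 without citrine-positive pool 10 and 13 after median-of-ratios scaling. R-spondin 1, RSPO1, an enhancer of Wnt signalling, had 14.5, 128 and 7.08 TPM in citrine-positive and 0, 0.19, 0 and 0 TPM in mCherry-positive libraries (4.6 ± 0.64), pool 9 being far the highest. DKK3 (ENSDARG00000070683) had 40.5, 76.8 and 76.8 TPM in citrine-positive and 8.40, 5.90, 15.3 and 8.14 TPM in mCherry-positive libraries (2.67 ± 0.49). SFRP2, of the antagonist family of SFRP1, was listed at 0 in all mCherry-positive libraries and had 5.07, 6.29 and 6.30 TPM in citrine-positive ones. The genes that fell were SFRP5, of the same family of antagonists, with 5.43, 0.62 and 0 TPM in citrine-positive and 65.0, 28.1, 27.7 and 27.1 TPM in mCherry-positive libraries (-4.01 ± 0.56), and the ligand gene WNT4, with 0.15, 2.02 and 2.91 TPM in citrine-positive and 82.6, 55.5, 32.6 and 16.9 TPM in mCherry-positive libraries (-4.10 ± 0.56). LRP5 (0.04 ± 0.35) and TCF7L2 (-0.42 ± 0.46), for a receptor and a transcription factor of the pathway, did not pass. With 1 library left out, the change moved by over 1.5 times in fold, without citrine-positive pool 9 to 3.42 for RSPO1, without citrine-positive pool 10 to 5.42 for RSPO1 and without citrine-positive pool 7 to -4.79 for SFRP5.

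Growth factor and retinoid genes gave 13 higher and 5 lower of 44 (median 0.62). Without citrine-positive pool 9, 8 were higher. Of all genes 4.84% were called higher and 7.07% lower. The binding proteins of insulin-like growth factors were split between the sorts. IGFBP5 (ENSDARG00000025348) had 21.5, 45.2 and 18.9 TPM in citrine-positive and 0.49, 0, 0.22 and 0.31 TPM in mCherry-positive libraries (4.47 ± 0.48), and IGFBP2 3.96, 44.6 and 32.4 TPM in citrine-positive libraries while listed at 0 in all mCherry-positive ones. By contrast igfbp6b had 1.35, 4.81 and 2.73 TPM in citrine-positive libraries, against 170.4, 240.0, 132 and 223 TPM in mCherry-positive libraries (log2 fold change -5.66 ± 0.45, adjusted p = 7.32e-08), and the ligand gene igf2b was lower as well (-1.86 ± 0.41). The platelet-derived growth factor B gene pdgfba, a signal from endothelium to mural cells, had 1.83, 3.79 and 2.72 TPM in citrine-positive libraries, against 96.0, 70.9, 11.9 and 31.7 TPM in mCherry-positive libraries (log2 fold change -3.49 ± 0.63, adjusted p = 7.76e-04), and neuregulin 2, NRG2 (ENSDARG00000077818), 7.50, 9.54 and 12.2 TPM in citrine-positive and 60.6, 84.7, 28.3 and 45.9 TPM in mCherry-positive libraries (-2.30 ± 0.45). The retinoic acid binding protein gene CRABP2 (ENSDARG00000030449) was higher (3.16 ± 0.53), and CRABP1 (ENSDARG00000035904) was listed at 0 in all mCherry-positive libraries with 4.25, 2.69 and 3.96 TPM in citrine-positive ones. The receptor gene RARG (ENSDARG00000034117) did not pass (-0.30 ± 0.32).

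Chemokine, cytokine and receptor genes gave 3 higher and 10 lower of 39 (median -1.14). Without mCherry-positive pool 9, 16 were lower. Over all genes 4.84% were called higher and 7.07% lower, so the higher count was near the share over all genes. CXCL12 and ccl25b rose, ccl25b with 21.8, 59.8 and 74.8 TPM in citrine-positive and 0, 0, 0.32 and 2.27 TPM in mCherry-positive libraries (5.03 ± 0.67), and the macrophage growth factor gene csf1a was listed at 0 in all mCherry-positive libraries with 9.15, 1.15 and 6.70 TPM in citrine-positive ones. Inflammatory genes were among the lower. ccl35.1 had 0.44, 0 and 0.27 TPM in citrine-positive libraries, against 80.2, 54.2, 26.1 and 25.9 TPM in mCherry-positive libraries (log2 fold change -5.12 ± 0.56, adjusted p = 3.18e-06), interleukin 1 beta, il1b, 0.18, 1.06 and 0 TPM in citrine-positive and 61.0, 25.4, 27.7 and 18.4 TPM in mCherry-positive libraries (-4.52 ± 0.73), and the tumour necrosis factor gene tnfb 4.67, 4.62 and 1.96 TPM in citrine-positive and 54.8, 37.7, 44.9 and 46.0 TPM in mCherry-positive libraries (-3.35 ± 0.56). The decoy receptor gene ACKR4 (ENSDARG00000040133) was lower (-2.31 ± 0.38). Integrin and matrix receptor genes gave 7 higher and 2 lower of 27 (median 0.21), where 4.84% of all genes were called higher and 7.07% lower. The higher count was 3 without citrine-positive pool 9 or 10 and 4 without mCherry-positive pool 5 or 7. ITGA11 (ENSDARG00000007950), a collagen receptor of fibroblasts, ranged over 26.9, 8.80 and 0.83 TPM in citrine-positive libraries against 0, 0, 0 and 1.12 TPM in mCherry-positive ones (2.72 ± 0.65), and overlapped. ITGA9 (2.38 ± 0.51), the dystroglycan gene DAG1 (2.00 ± 0.40) and the collagen receptor kinase gene DDR2 (ENSDARG00000100693) (1.75 ± 0.47) rose. ITGA6 (-2.04 ± 0.51), a laminin receptor, and ITGA1 (-1.49 ± 0.40), a collagen and laminin receptor, fell, and the fibronectin receptor gene ITGA5 did not pass (-0.42 ± 0.47). Some of these changes rested on 1 library more than on others and moved by over 1.5 times in fold, without citrine-positive pool 10 to 3.78 for ITGA11. The call was lost without citrine-positive pool 7 for ITGA11 (adjusted p = 0.0524) and ITGA1 (0.11), without mCherry-positive pool 5 for DDR2 (0.0529), without citrine-positive pool 9 for DDR2 (0.0602) and ITGA1 (0.0675) and without citrine-positive pool 10 for DDR2 (0.0891) and ITGA6 (0.0635). Other fits did not call DDR2 (adjusted p = 0.0768), ITGA6 (0.11) and ITGA1 (0.0552) with the pool as a block over 13 libraries, and csf1a (0.0512), ITGA11 (0.161), ITGA9 (0.0582), DDR2 (0.0699), ITGA6 (0.0908) and ITGA1 (0.06) on the 7 libraries alone, and ITGA1 (0.051) after median-of-ratios scaling.

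Genes of lipid uptake were lower for 6 and higher for 1 of 23 (median -0.47), where 7.07% of all genes were called lower and 4.84% higher. The higher count was near the share over all genes. The median was 0.02 with median-of-ratios scaling. Lipoprotein lipase, LPL, had 0.78, 2.2 and 6.53 TPM in citrine-positive libraries, against 295, 222, 107 and 179 TPM in mCherry-positive libraries (log2 fold change -5.76 ± 0.48, adjusted p = 1.25e-07). The fatty acid binding protein gene fabp4a had 239, 219 and 535 TPM in citrine-positive libraries, against 4612, 3953, 2235 and 3240.1 TPM in mCherry-positive libraries (log2 fold change -3.47 ± 0.45, adjusted p = 2.67e-05). Both genes were high in every mCherry-positive library. FABP3, of muscle, was the member that rose (4.11 ± 1.0), and overlapped through mCherry-positive pool 5, at 116, 109.7 and 49.0 TPM in citrine-positive and 59.6, 0, 2.08 and 2.34 TPM in mCherry-positive libraries. The caveola coat gene CAVIN2 (ENSDARG00000027611) was lower (-4.64 ± 0.53). Complement and coagulation genes gave 3 higher and 7 lower of 22 (median -0.58). Without mCherry-positive pool 9, 5 were higher. A starter and a brake of coagulation were higher in different sorts. Tissue factor, f3b, which starts it, had 269, 269 and 229 TPM in citrine-positive libraries, against 70.3, 105, 99.1 and 26.6 TPM in mCherry-positive libraries (log2 fold change 1.92 ± 0.44, adjusted p = 0.00557), while its inhibitor TFPI had 76.7, 67.5 and 68.7 TPM in citrine-positive libraries, against 534, 663, 255 and 332 TPM in mCherry-positive libraries (log2 fold change -2.54 ± 0.49, adjusted p = 0.00131). Complement component 4, c4b, had 197, 121 and 129.8 TPM in citrine-positive and 31.1, 1.54, 8.14 and 13.5 TPM in mCherry-positive libraries (3.85 ± 0.62). F10 (-0.30 ± 0.46) and c7a (0.34 ± 0.41) did not pass. Single libraries moved some of these changes by over 1.5 times in fold, without mCherry-positive pool 5 to 5.31 for FABP3 and without mCherry-positive pool 6 to 3.34 for FABP3 and 3.18 for c4b. Calls were not made for FABP3 (adjusted p = 0.129) and f3b (0.0688) on the 7 libraries alone. Median-of-ratios scaling gave a call for c7a (adjusted p = 0.0464).

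Markers of other cell types moved with the comparison. Of 33 macrophage genes 26 were lower in citrine-positive cells and 7 did not pass (median -3.17), where 7.07% of all genes were called lower. The macrophage list summed to 214 to 287 TPM in citrine-positive libraries, against 732 to 3261 TPM in mCherry-positive cells. It summed to 5452 to 9849 TPM in double-negative libraries. The pan-leukocyte gene ptprc had 0.43, 0.08 and 0.10 TPM in citrine-positive libraries, against 30.6, 13, 7.06 and 39.9 TPM in mCherry-positive libraries (log2 fold change -4.03 ± 0.48, adjusted p = 8.01e-06). The scavenger receptor gene marco had 0.21, 2.64 and 4.61 TPM in citrine-positive and 199, 48.8, 57.3 and 157 TPM in mCherry-positive libraries (-5.07 ± 0.59), and fcer1gl 0.53, 0.20 and 0 TPM in citrine-positive and 126, 50.5, 9.61 and 70.0 TPM in mCherry-positive libraries (-5.27 ± 0.62). All 3 genes lay lowest, among mCherry-positive libraries, in pool 6 or 7. An ID of MFAP4 was the only tested macrophage gene at 0 in all citrine-positive libraries. In bulk libraries fewer cells of a type and less RNA per cell cannot be told apart. The part of macrophage RNA in the lower inflammatory genes, il1b, tnfb and ccl35.1 among them, was not tested. Leaving out 1 library moved a log2 fold change by over 1.5 times in fold, without citrine-positive pool 7 to -4.44 for marco and without mCherry-positive pool 7 to -5.98 for fcer1gl.

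Heart muscle genes moved the other way and unevenly. Of 27 cardiomyocyte genes 13 rose, 2 fell and 12 did not pass (median 2.27), and 8 rose without citrine-positive pool 7 (median 1.31). Fitted on the 7 libraries alone, 1 rose and 1 fell. Over all genes 4.84% were called higher and 7.07% lower, so the count of falls in the main fit was near that share. The myosin gene MYH7 had 1486, 61.0 and 76.7 TPM in citrine-positive libraries, against 8.28, 9.53, 29.6 and 3.11 TPM in mCherry-positive libraries (log2 fold change 4.19 ± 0.90, adjusted p = 0.00351), and the troponin C gene tnnc1a 733, 67.6 and 67.4 TPM in citrine-positive libraries, against 12.6, 27.6, 16.7 and 3.10 TPM in mCherry-positive libraries (log2 fold change 3.54 ± 0.69, adjusted p = 0.00154). Pool 7 carried the most of both among citrine-positive libraries. The full list summed to 11369, 1014 and 1080 TPM in citrine-positive libraries, against 8620, 7774, 6925 and 4290 TPM in mCherry-positive ones. Without mb and nppb it summed to 854 to 10245 TPM in citrine-positive libraries, against 287 to 392 TPM in mCherry-positive ones. In double-negative libraries the sum without mb and nppb was 1179 to 3277 TPM. The members that fell were those 2. Myoglobin, mb, the oxygen store of muscle, had 1004, 158 and 188 TPM in citrine-positive libraries, against 7679, 7025, 6531 and 3845 TPM in mCherry-positive libraries (log2 fold change -4.28 ± 0.54, adjusted p = 1.86e-05), and natriuretic peptide nppb 119.7, 1.61 and 2.84 TPM in citrine-positive and 590.2, 442, 106 and 52.7 TPM in mCherry-positive libraries (-4.21 ± 1.1). The part of muscle RNA in other results was not tested. FABP3, named with the lipid genes, also belongs to this list. A fold change named here moved by over 1.5 times in fold, without citrine-positive pool 7 to 2.72 for MYH7, 2.40 for tnnc1a, -5.13 for mb and -5.96 for nppb, without citrine-positive pool 9 to 5.01 for MYH7, without citrine-positive pool 10 to 4.85 for MYH7 and without mCherry-positive pool 9 to -4.83 for nppb. No call was made without mCherry-positive pool 5 for nppb (adjusted p = 0.0529), without citrine-positive pool 9 for nppb (0.106) and without citrine-positive pool 10 for nppb (0.0909). Not past the test were nppb (adjusted p = 0.0568) with the pool as a block over 13 libraries, and MYH7 (0.098), tnnc1a (0.0963) and nppb (0.171) on the 7 libraries alone.

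The lists of other blood and nerve lineages are short, and over all genes 4.84% were called higher and 7.07% lower. Of 13 neutrophil genes 1 rose, gelatinase B MMP9, and 2 fell, il1b and srgn, and the granule genes lyz and npsn were at 0 in all citrine-positive libraries. Neutrophil genes summed to 102 to 238 TPM in citrine-positive cells, against 306 to 598 TPM in mCherry-positive libraries. For 14 lymphocyte and 17 erythroid genes limma called 0 in either direction, with 0 and 2 at an unadjusted p under 0.05. Erythroid genes summed to 19.8 to 61.6 TPM in citrine-positive cells, against 25.6 to 216 TPM in mCherry-positive cells, and to 2282 to 29399.6 TPM in double-negative ones. Of 13 thrombocyte genes 1 fell, the integrin activator gene FERMT3 (ENSDARG00000030938), a count near the share over all genes. Of 10 neural crest, glia and pigment genes 3 rose, both IDs of the neurotrophin receptor NGFR and plp1b (1.8 ± 0.40). NGFR (ENSDARG00000088708) had 7.31, 15 and 41.3 TPM in citrine-positive and 0.18, 0.23, 0.98 and 1.5 TPM in mCherry-positive libraries (3.44 ± 0.57). By leaving out single libraries, the change moved by over 1.5 times in fold, without citrine-positive pool 10 to 2.82 for NGFR. The test was no longer passed without citrine-positive pool 7 for MMP9 (adjusted p = 0.104). The test did not call plp1b (adjusted p = 0.0649) with the pool as a block over 13 libraries, and MMP9 (0.0923) on the 7 libraries alone.

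**Figure D4:**
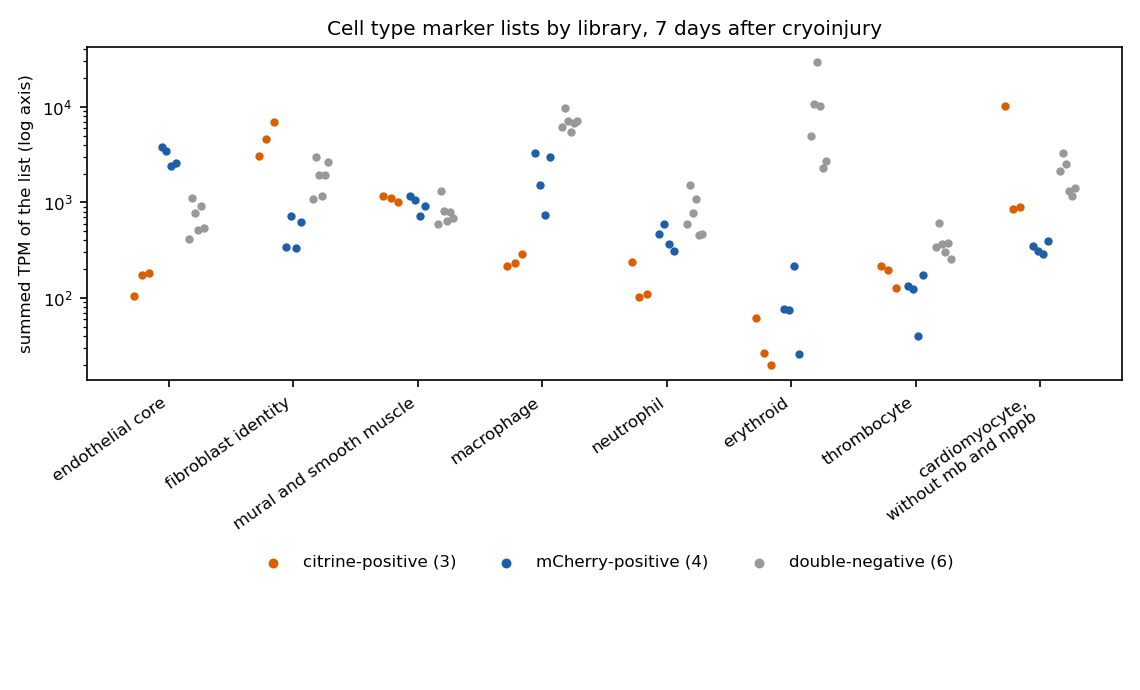
Summed TPM of 8 marker lists in each library, on a log axis. Orange, blue and grey points are citrine-positive, mCherry-positive and double-negative libraries at 7 dpi. Macrophage sums are lowest in citrine-positive and highest in double-negative libraries. The cardiomyocyte sum, shown without mb and nppb, the 2 members called lower, is highest in citrine-positive pool 7.

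Genes induced by cell stress and early response were more often lower than higher in citrine-positive cells. Of 49 such genes 19 fell (all genes 7.07%), 1 rose (all genes 4.84%) and 29 did not pass (median -1.17). With median-of-ratios scaling 12 fell. They can respond to dissociation and sorting as well as to injury, and summed to 4368 to 5929 TPM in citrine-positive libraries, against 7998 to 41519 TPM in mCherry-positive ones. The lowest mCherry-positive sum was that of pool 9, and within pools 9 and 10 only 1 of these genes was called lower. The AP-1 gene FOSB had 559, 188 and 186 TPM in citrine-positive libraries, against 1418, 1071, 985 and 1165 TPM in mCherry-positive libraries (log2 fold change -2.09 ± 0.44, adjusted p = 0.00304), and JUNB (ENSDARG00000074378) 191, 217 and 217 TPM in citrine-positive libraries, against 1101, 996, 948 and 414 TPM in mCherry-positive libraries (log2 fold change -1.96 ± 0.38, adjusted p = 0.00166). The early response genes ier2a (-1.78 ± 0.38) and GADD45B (ENSDARG00000027744) (-1.66 ± 0.32) were lower too. EGR3 was the one that rose, with 30.1, 12.2 and 22.9 TPM in citrine-positive and 2.15, 3.01, 5.73 and 10.7 TPM in mCherry-positive libraries (1.93 ± 0.58). The chaperone gene HSPA8 (ENSDARG00000068992) was abundant throughout, with 1236, 631 and 740.3 TPM in citrine-positive libraries, against 3572, 2715, 1171 and 805 TPM in mCherry-positive libraries, and did not pass (log2 fold change -1.06 ± 0.55, adjusted p = 0.249). A call did not hold without mCherry-positive pool 5 for EGR3 (adjusted p = 0.0976), without mCherry-positive pool 6 for EGR3 (0.0864), without citrine-positive pool 7 for EGR3 (0.132) and without citrine-positive pool 10 for EGR3 (0.104). Missing the threshold were EGR3 (adjusted p = 0.127) with the pool as a block over 13 libraries, and EGR3 (0.111) on the 7 libraries alone.

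Housekeeping genes came from lists for the cell cycle, secretion and mitochondria. None of these lists was called more often than all genes, of which 4.84% were called higher and 7.07% lower. Of 42 cell cycle genes 1 fell, the replication clamp gene PCNA, with 9.35, 28.2 and 20.2 TPM in citrine-positive libraries, against 109, 160.4, 62.6 and 47.3 TPM in mCherry-positive libraries (log2 fold change -2.21 ± 0.47, adjusted p = 0.00322). Of 41 genes of the endoplasmic reticulum and secretion 2 fell, the stress factor genes atf4b (-2.02 ± 0.56) and atf6 (-1.85 ± 0.57), and 1 rose, CREB3L1 (1.57 ± 0.45), which drives collagen secretion in bone. After median-of-ratios scaling 6 of this list rose and 0 fell, and without mCherry-positive pool 9, 4 fell. The chaperone gene HSPA5 did not pass, with 309, 69.0 and 78.7 TPM in citrine-positive libraries, against 957, 743, 463 and 72.9 TPM in mCherry-positive libraries (log2 fold change -1.72 ± 0.84, adjusted p = 0.212). Citrine-positive pools 9 and 10 and mCherry-positive pool 9 were low. For the 13 mitochondrially encoded genes limma called 0 in either direction, also at an unadjusted p under 0.05, and 3 rose after median-of-ratios scaling. The call was lost without mCherry-positive pool 5 for atf4b (adjusted p = 0.0729), atf6 (0.109) and CREB3L1 (0.0802), without mCherry-positive pool 6 for atf4b (0.0663) and atf6 (0.104), without citrine-positive pool 9 for atf4b (0.0966), atf6 (0.166) and CREB3L1 (0.0902), without citrine-positive pool 10 for atf4b (0.114), atf6 (0.133) and CREB3L1 (0.0658), without mCherry-positive pool 7 for atf6 (0.0691) and CREB3L1 (0.0608) and without citrine-positive pool 7 for CREB3L1 (0.0511). The test was passed without mCherry-positive pool 9 for HSPA5 (adjusted p = 0.0289). Other fits did not call atf4b (adjusted p = 0.0882), atf6 (0.2) and CREB3L1 (0.108) with the pool as a block over 13 libraries, and PCNA (0.0581), atf4b (0.135), atf6 (0.171) and CREB3L1 (0.098) on the 7 libraries alone, and atf4b (0.0704) and atf6 (0.12) after median-of-ratios scaling.

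Paralogs, the gene copies kept from an ancient genome duplication of bony fish among others, could differ in sort. Of 944 symbols carried by several tested IDs, 67 had at least 2 called IDs, of which 27 had calls only higher, 30 only lower and 10 in both directions. Over all IDs tested 4.84% were called higher and 7.07% lower. Whether 10 is more than these shares would give was not tested. The symbols in both directions were ALDOA, BAIAP2, CCDC149, CORO1C, EFEMP2, EFNB2, NAV1, PHKG1, PHLDB2 and RND3, a set chosen by its values. For the small GTPase symbol RND3, RND3 (ENSDARG00000007396) had 103, 60.6 and 72.7 TPM in citrine-positive libraries, against 0, 1.82, 1.01 and 10.7 TPM in mCherry-positive libraries (4.77 ± 0.69), and RND3 (ENSDARG00000076799) had 23.9, 9.26 and 15.5 TPM in citrine-positive libraries, against 85.4, 68.8, 65.6 and 35 TPM in mCherry-positive libraries (-1.93 ± 0.38). For the fibulin EFEMP2, EFEMP2 (ENSDARG00000094324) had 42.3, 43.5 and 76.9 TPM in citrine-positive and 1.09, 0.31, 1.35 and 3.07 TPM in mCherry-positive libraries (4.55 ± 0.49), against 10.2, 14.2 and 18 TPM in citrine-positive and 67.4, 43.8, 26.3 and 56.0 TPM in mCherry-positive libraries for EFEMP2 (ENSDARG00000020811) (-1.66 ± 0.41). For ephrin B2, a ligand of arterial endothelium, EFNB2 (ENSDARG00000020164) had 38.1, 34.9 and 48.5 TPM in citrine-positive and 26.6, 7.10, 6.61 and 4.67 TPM in mCherry-positive libraries (2.05 ± 0.51), and EFNB2 (ENSDARG00000074050) 9.47, 6.45 and 2.40 TPM in citrine-positive and 12.9, 29.6, 61.6 and 65.3 TPM in mCherry-positive libraries (-2.5 ± 0.68). The glycolytic aldolase IDs ALDOA (ENSDARG00000034470) (3.46 ± 0.70) and ALDOA (ENSDARG00000011665) (-1.74 ± 0.53) differed likewise, the first with its highest level in citrine-positive pool 7. Reads that match both copies are divided between them by estimate, so the split between near-identical copies is uncertain. With 1 library left out, the change moved by over 1.5 times in fold, without mCherry-positive pool 9 to 5.45 for RND3 (ENSDARG00000007396) and without citrine-positive pool 7 to 2.73 for ALDOA (ENSDARG00000034470). No call was made without citrine-positive pool 10 for EFNB2 (ENSDARG00000020164) (adjusted p = 0.0504), EFNB2 (ENSDARG00000074050) (0.109) and ALDOA (ENSDARG00000011665) (0.167), without mCherry-positive pool 7 for EFNB2 (ENSDARG00000074050) (0.0506), without mCherry-positive pool 5 for ALDOA (ENSDARG00000011665) (0.11), without mCherry-positive pool 6 for ALDOA (ENSDARG00000011665) (0.102) and without citrine-positive pool 9 for ALDOA (ENSDARG00000011665) (0.149). Calls were not made for EFEMP2 (ENSDARG00000020811) (adjusted p = 0.0795) and ALDOA (ENSDARG00000011665) (0.186) with the pool as a block over 13 libraries, and EFEMP2 (ENSDARG00000020811) (0.053), EFNB2 (ENSDARG00000020164) (0.0866), EFNB2 (ENSDARG00000074050) (0.0784) and ALDOA (ENSDARG00000011665) (0.166) on the 7 libraries alone, and EFNB2 (ENSDARG00000074050) (0.0811) and ALDOA (ENSDARG00000011665) (0.121) after median-of-ratios scaling.

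**Figure D5:**
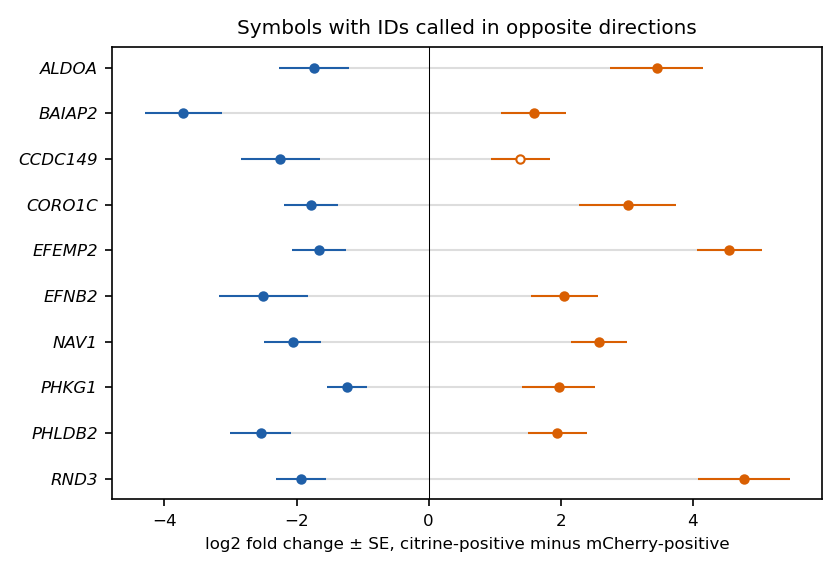
Log2 fold change (citrine-positive minus mCherry-positive, ± SE) of both called IDs of the 10 symbols with calls in opposite directions. Orange points are the IDs called higher and blue points those called lower in citrine-positive cells, 1 symbol per row, with open points for IDs listed at 0 in a whole group.

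The remaining libraries were set beside these differences. The genes were called from the same citrine-positive and mCherry-positive libraries, so much of the counts below is set by that choice. The counts describe the calls, and the shares over all genes were not counted. The mean of the 6 double-negative libraries lay between those of both sorts for 863 of the 922 genes called higher and 1047 of the 1346 called lower. All 3 uninjured mCherry-positive libraries lay above all citrine-positive libraries for 1144 of the genes called lower, and below all of them for 771 of those called higher. Fibronectin, FN1 (ENSDARG00000006526), was at 1803 ± 888 TPM in double-negative cells (SD, n = 6) and 48.2 ± 6.74 TPM in uninjured mCherry-positive cells (SD, n = 3). For cdh5 the double-negative libraries had 73.8 ± 34.2 TPM and the uninjured mCherry-positive ones 416 ± 123 TPM. Periostin, POSTN (ENSDARG00000104267), stood at 302 ± 98.5 TPM in double-negative and 0.37 ± 0.23 TPM in uninjured mCherry-positive cells. The leukocyte gene ptprc was at 157 ± 40.7 TPM in double-negative and 5.86 ± 2.51 TPM in uninjured mCherry-positive cells.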

How the data were processed

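Cells from trypsin-treated ventricular apexes were sorted by fluorescence, and 0.2 to 0.6 ng of total RNA per library was amplified with a single-cell kit and read as 60-base single reads, per the labels' protocols. The authors deposited a table of TPM for 31388 gene IDs in 16 libraries, and the submitters' processing notes name CASAVA 1.8.2, cutadapt, RSEM 1.2.25 and the Zv9 build. No counts were used, so the depth behind a value is unknown, and amplification from such input can widen the spread of low genes. Symbols for 25925 IDs came from a gene name table that carries human symbols for many genes, so that several IDs can share a symbol.

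IDs that reached 1 TPM in 3 or more libraries were fitted with limma 3.58.1 (R 4.3.3, trend on) as log2(TPM + 1) over all 16 libraries, which share 1 estimate of the spread, and the contrast of citrine-positive minus mCherry-positive at 7 dpi was adjusted by Benjamini-Hochberg. The pseudocount of 1 understates the change of low genes. The fit was tested on simulated data for this comparison, in 19039 genes of which 200 were changed. Of 96 genes changed by 2 on the log2 scale 56.25% were called, and of 104 changed by 4, 97.1%, and 6.06% of all calls were of unchanged genes. The simulated noise was independent between libraries, without pool or batch effects, and changes were placed only in genes of higher mean level. These shares therefore do not carry over to low genes or to the calls made on the real libraries. Tables and plots used Python 3.11.15, numpy 2.4.6, pandas 2.3.3 and matplotlib 3.10.9. Of 970 gene names in 36 lists, 338 matched a symbol exactly, 315 without regard to case, 234 without the paralog letter, and 83 none. Lists overlap.

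The members and lists were chosen with earlier results of these data known. Genes were named by a rule. It takes the sort markers, the 15 largest rises and falls with symbols, libraries that do not overlap and at least 20 TPM on average in the higher group, and in each list the 4 called genes of smallest adjusted p in each direction and the 2 most abundant not called. Of the genes named with values, 12 IDs of ALDOA, COL1A1, COL6A3, COL8A1, EFNB2, RND3, TBX18, THBS4 and col1a1a fall outside it and were chosen after their values were seen, as were pecam1a and pecam1b, which stand for a marker that matched no symbol. Not every gene that the rule takes is reported here.

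Libraries are separate sorts of pooled hearts. The p-values of the main fit measure the spread between libraries within groups, taken over all 16 libraries, double-negative and uninjured ones included. Libraries of the same pool were treated in it as independent. The pool number is a label tag, and deviations of the same pool in both sorts correlated by 0.065 for pool 7 and 0.181 for pool 9 across genes, while pairs of different pools correlated by -0.261 to 0.177. The pool was no term of the main comparison, and fits with it as a block are given beside it. Alternatives were other pseudocounts, filters and scalings, fits on fewer libraries, within pools, with a batch or replicate block term, without the trend, with a fold minimum, and with each library left out.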

Additional observations from a re-analysis of the deposited data

Results flagged for a closer look

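Among the 207 gene IDs given in the text, the levels in the 4 mCherry-positive libraries were searched for a library standing apart, by the gap to its nearest neighbour over the range of the group on the log2(TPM + 1) scale (Dixon's criterion at the 95% level, for genes that reach 5 TPM). It was met 9 times, and chance meets it in about 1 of 20 groups. The 9 among the 207 IDs are therefore not shown to exceed what chance would give. Pool 5 was high for NID1 (ENSDARG00000068710), at 42.69 TPM against 27.2 to 29.2 TPM in the others, and for SFRP5, at 65 TPM against 27.1 to 28.1 TPM. Pool 7 was low for mfap2, at 2.14 TPM against 7.96 to 8.03 TPM, and for CLU, at 12.74 TPM against 23.0 to 24.4 TPM, and high for ADAMTS5, at 30 TPM against 11.1 to 11.3 TPM. Pool 9 was high for MMP2, at 35.07 TPM against 16.2 to 16.8 TPM, and low for smtnb, at 40.33 TPM against 149.8 to 155 TPM, for flt1, at 66.62 TPM against 225 to 278 TPM, and for JUNB (ENSDARG00000074378), at 413.63 TPM against 948 to 1101 TPM. The 3 citrine-positive libraries were not searched in this way, so a library standing apart among them would not be flagged here. No explanation for these values was tested.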

How the results depend on the processing

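The count of called genes stayed within 1.5 times of 2268 under other pseudocounts, filters and scalings, without the trend, with a fold minimum of 1, over the 13 libraries at 7 dpi, with a batch term and within pools 5 to 8, and was 1712 to 2657 with 1 library left out. Calls shared with the fit as reported had the same direction in each of these. Rises were 1549 after median-of-ratios scaling, and 631 of 2084 calls (30.3% higher) with a filter of 5 TPM. On the 7 libraries alone limma called 1082 genes, 483 higher and 599 lower, with 217 list members, against 331 as reported. Within pools 9 and 10 it called 536 genes, 249 higher and 287 lower, with 154 list members and 108 of the genes given in the text, against 174. With the pool as a replicate block over 13 libraries it called 1444 genes, 787 of them lower, and 153 of the 174. With the replicate block over the pairs of pools 7 and 9 alone it called 0 genes, 0 higher and 0 lower, among them 0 list members and 0 genes given in the text, and 2063 genes had an unadjusted p under 0.05. That fit holds 4 libraries. The other cells' spread was not used in it.

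Of the lists, the 7 libraries alone gave rises in 2 basement membrane (against 8), 4 collagen processing (against 8), 5 Wnt (against 8), 1 integrin (against 7) and 1 cardiomyocyte genes (against 13), and falls in 4 vessel (against 8), 2 elastic fibre (against 4), 1 protease (against 4), 2 epicardial (against 4), 6 chemokine and cytokine (against 10) and 7 early response genes (against 19). The replicate block over 13 libraries gave rises in 5 basement membrane genes (against 8), and falls in 1 protease (against 4), 2 epicardial (against 4), 4 TGF-beta and BMP (against 9) and 12 early response genes (against 19). Of the 174 genes given in the text that passed, 151 passed with each of the 7 libraries left out in turn, 165 after median-of-ratios scaling and 139 on the 7 libraries alone. The sign turned for 17 genes under at least 1 alternative, 0 of which had passed (limma, adjusted p). With median-of-ratios scaling the log2 fold change was 0.14 for sdc4, 0.48 for ZEB1, 0.17 for TAGLN (ENSDARG00000033466), 0.27 for ID3, 0.11 for TCF7L2, 0.26 for RARG, 0.14 for ITGA5 and 0.26 for F10. With the TPM rescaled the log2 fold change was 0.021 for sdc4, 0.38 for ZEB1, 0.053 for TAGLN (ENSDARG00000033466), 0.15 for ID3, 0.0024 for TCF7L2, 0.14 for RARG, 0.024 for ITGA5 and 0.15 for F10. With the replicate block over 13 libraries the log2 fold change was -0.59 for POSTN (ENSDARG00000043806), -0.081 for THBS3 (ENSDARG00000077641), 0.21 for ID3 and 0.19 for ITGA5. With the replicate block over pools 7 and 9 alone the log2 fold change was -0.78 for POSTN (ENSDARG00000043806), 0.15 for COL11A2, -0.31 for THBS3 (ENSDARG00000077641), -0.011 for COL4A1, 0.59 for ID3, -0.24 for LRP5, 0.0071 for RARG, 0.11 for ITGA5 and 0.12 for F10. With a batch term for pools 9 and 10 the log2 fold change was -0.60 for POSTN (ENSDARG00000043806), -0.063 for THBS3 (ENSDARG00000077641), 0.080 for ID3, -0.069 for LRP5 and 0.077 for ITGA5. Within pools 5 to 8 the log2 fold change was -0.86 for POSTN (ENSDARG00000043806), -0.32 for col16a1, -0.52 for THBS3 (ENSDARG00000077641), -0.63 for COL4A1, 0.27 for sdc4, -0.35 for PLOD2, 0.10 for ID3, -0.56 for LRP5 and 0.31 for ITGA5. Within pools 9 and 10 the log2 fold change was -0.57 for POSTN (ENSDARG00000043806), 0.14 for COL11A2, 0.068 for ZEB1, 0.23 for TAGLN (ENSDARG00000033466), 0.46 for ID3, 0.061 for F10, -0.14 for c7a and 0.015 for HSPA5. Leaving out 1 library also turned the sign of 6 of them, with ranges of -0.33 to 1.31 for POSTN (ENSDARG00000043806), -0.41 to 0.29 for THBS3 (ENSDARG00000077641), -0.13 to 0.93 for COL4A1, -0.076 to 0.40 for PLOD2, -0.39 to 0.18 for ZEB1 and -0.18 to 0.36 for LRP5. The cause of these changes was not tested. Medians of lists moved by at most 0.49 when genes at 0 in a whole group were left out. With 3 and 4 libraries and unknown depth, a gene that did not pass may still differ.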
